A study of Mus musculus with 24 samples.

Results

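The genes described here are 32 enzymes, regulators and carriers of sterol and fatty acid synthesis, chosen by name from the 38215 genes of a bulk RNA sequencing table of mouse natural killer (NK) cells. All 32 had a row. By role they were 8 genes of the mevalonate and isoprenoid steps, 9 genes from squalene to cholesterol, and 5 genes of regulators, with a sterol carrier among the 5. The others were 5 genes of acetyl-CoA, NADPH and fatty acid synthesis, and 5 genes of fatty acid elongation and desaturation. The choice used no measured value, but it was made with earlier results of these data known.

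The study compared 24 poly(A) RNA libraries in 6 groups of 4 that the labels call biological replicates. NK cells came from the spleen of naive wild-type (WT) mice, naive FcRγ knockout (KO) mice, from spleen of either genotype with IL-15 treatment, and from tumour-bearing lung of either genotype. FcRγ is the signalling adaptor encoded by Fcer1g, and IL-15 is a cytokine on which NK cells depend. The lung libraries carry the treatment label naive, so no group combines lung with IL-15. Strain, age, the way the KO was made, the dose and time of IL-15, whether it was given to animals or to cultured cells, and the tumour type are left unstated in the labels used here. Nothing says that each library is a separate animal, so p-values measure the spread between these samples, which may be partly technical.

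Cholesterol is built from acetyl-CoA through mevalonate, isoprenoid diphosphates, squalene and lanosterol. Fatty acids are built from acetyl-CoA and malonyl-CoA with NADPH, and are then elongated and desaturated. The transcription factors SREBP1 and SREBP2 (genes Srebf1 and Srebf2) drive both routes. They are held in the endoplasmic reticulum by INSIG proteins bound to the escort SCAP when sterols are plentiful, and reach the nucleus after cleavage in the Golgi when sterols are scarce. In lymphocytes these programmes are known for rising as cells grow and divide.

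Library totals were 9683382 to 32095383 counts, and all but 2 held at least 21183512. KO naive replicate 1 (9683382) and WT lung replicate 1 (9774684) were the shallow ones. Fcer1g separated all libraries by genotype, with log2 KO effects (± standard error) of −7.54 ± 0.35 among the naive libraries, −5.61 ± 0.31 among the IL-15 libraries and −5.38 ± 0.17 among the lung libraries. The 10 NK cell markers were present in every group, with a summed level of 20500 ± 955 CPM (mean ± SD, n = 4) in naive WT and 16300 ± 1310 in naive KO. Levels here are CPM (counts scaled to a common library total after TMM adjustment), and the counts come from bulk populations, in which fewer cells of a type and less RNA per cell cannot be told apart.

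Promoters of the family are shown first, because many members moved together with IL-15. RefSeq windows on GRCm38.p6, the build of the counts, were found for 25 of the 32 genes. Windows of 250 bases before each annotated start were searched on both strands for the CCAAT box (CCAAT), the sterol regulatory element of the form TCACNCCAC, the GC box (GGGCGG) and the E-box (CACGTG), motifs that were chosen with expression values known. The CCAAT box is bound by NF-Y, which is known to act beside SREBPs. Counting a match at any annotated start of a gene, the CCAAT box was found for 19 of 25 members (76%). The share was 37.49% of all 27025 genes with an entry and 40.9% of the 8802 of them tested in spleen. Of the 14 mevalonate and cholesterol enzymes with an entry, 13 held it, and Acat2 was the exception. These searches included bases annotated as exon. In the longest exon-free stretch of each window, the enzymes Cyp51, Dhcr7, Idi1 and Tm7sf2 held no CCAAT box, nor did Acss2. For Idi1 and Tm7sf2 no base of the window was free of exon annotation. The other members that held the box still did there. The sterol element was found for Hmgcs1 alone (1.22% of all genes with an entry). The GC box was found for 20 of 25 members, against 35.36% of all genes with an entry and 63.7% of those tested. For the E-box it was 4 of 25, against 6.86% and 9.9%. These are letter matches, not sites shown to be bound, and GC boxes and sterol elements of other letters were not searched. Motifs can overlap, as a pair of CCAAT boxes on opposite strands does in Fasn.

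Windows of 6 genes are printed below, 5′ to 3′ on the gene's own strand, without any base annotated as exon. The genes with the largest rises (Sqle and Fads2) and the largest fall (Acss2) with IL-15 in WT are not among them. Capitals mark CCAAT boxes on either strand and the sterol element. The first 4 genes rose with IL-15 in both genotypes, Ebp fell in both, and Acly did not pass the test in either.
Hmgcs1 (chr13:119690101-119690350, plus strand): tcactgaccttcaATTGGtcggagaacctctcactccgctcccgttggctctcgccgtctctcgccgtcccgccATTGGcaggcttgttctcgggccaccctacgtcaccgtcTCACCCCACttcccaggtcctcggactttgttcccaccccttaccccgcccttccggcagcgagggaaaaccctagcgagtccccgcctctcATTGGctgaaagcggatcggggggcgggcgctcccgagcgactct
Mvk (chr5:114444061-114444268, plus strand): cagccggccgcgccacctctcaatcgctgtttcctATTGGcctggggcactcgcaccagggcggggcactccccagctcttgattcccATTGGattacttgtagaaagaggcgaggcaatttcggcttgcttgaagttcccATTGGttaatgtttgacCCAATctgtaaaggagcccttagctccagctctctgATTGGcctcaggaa
Lss (chr10:76531355-76531587, plus strand): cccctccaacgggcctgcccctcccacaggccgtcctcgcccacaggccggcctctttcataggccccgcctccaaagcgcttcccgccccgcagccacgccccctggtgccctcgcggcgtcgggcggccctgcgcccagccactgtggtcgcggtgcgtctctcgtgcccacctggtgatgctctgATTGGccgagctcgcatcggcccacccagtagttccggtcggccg
Fasn (chr11:120824548-120824797, minus strand): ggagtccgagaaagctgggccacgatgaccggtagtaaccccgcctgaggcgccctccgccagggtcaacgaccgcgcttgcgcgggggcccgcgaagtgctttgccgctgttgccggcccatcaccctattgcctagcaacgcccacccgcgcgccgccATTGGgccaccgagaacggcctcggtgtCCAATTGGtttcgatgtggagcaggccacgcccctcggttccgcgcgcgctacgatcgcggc
Ebp (chrX:8193513-8193762, minus strand): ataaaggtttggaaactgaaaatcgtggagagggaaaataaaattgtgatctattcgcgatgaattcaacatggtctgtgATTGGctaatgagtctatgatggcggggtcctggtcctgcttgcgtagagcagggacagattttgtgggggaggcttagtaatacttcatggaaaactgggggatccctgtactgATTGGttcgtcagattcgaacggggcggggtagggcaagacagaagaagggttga
Acly (chr11:100528001-100528250, minus strand): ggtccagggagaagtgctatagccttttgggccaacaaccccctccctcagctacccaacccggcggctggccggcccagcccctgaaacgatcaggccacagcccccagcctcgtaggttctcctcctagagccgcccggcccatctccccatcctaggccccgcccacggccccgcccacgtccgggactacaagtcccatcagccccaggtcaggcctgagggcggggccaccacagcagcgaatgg
Mvk held 5 CCAAT boxes in this stretch, Hmgcs1 and Fasn 3 each, Ebp 2, Lss 1 and Acly 0. Ebp, which fell with IL-15, therefore held the same letters as the genes that rose.

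IL-15-treated spleen NK cells had higher transcripts of most of the family than naive ones, in both genotypes. In WT, 25 of 32 genes rose and 3 fell, while 26.4% of the 13344 genes tested in spleen rose and 26% fell, 52.4% in either direction (edgeR quasi-likelihood test, adjusted p under 0.05). The median change of the 32 was 1.37 log2 units, against −0.01 over all genes. In KO, 22 rose and 2 fell, with 20.7% and 21% of all genes rising and falling, and the median of the 32 was 0.96. The 22 genes that rose in KO all rose in WT too. Nsdhl, Scap and Scd1 passed in WT and not in KO, with KO changes of 0.55 ± 0.22, −0.13 ± 0.15 and 0.58 ± 0.39, and Ggps1 passed as lower in WT alone. Acly, Dhcr7, Me1 and Tm7sf2 passed in neither. All 32 genes met the low-count filter in spleen.

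**Figure D1:**
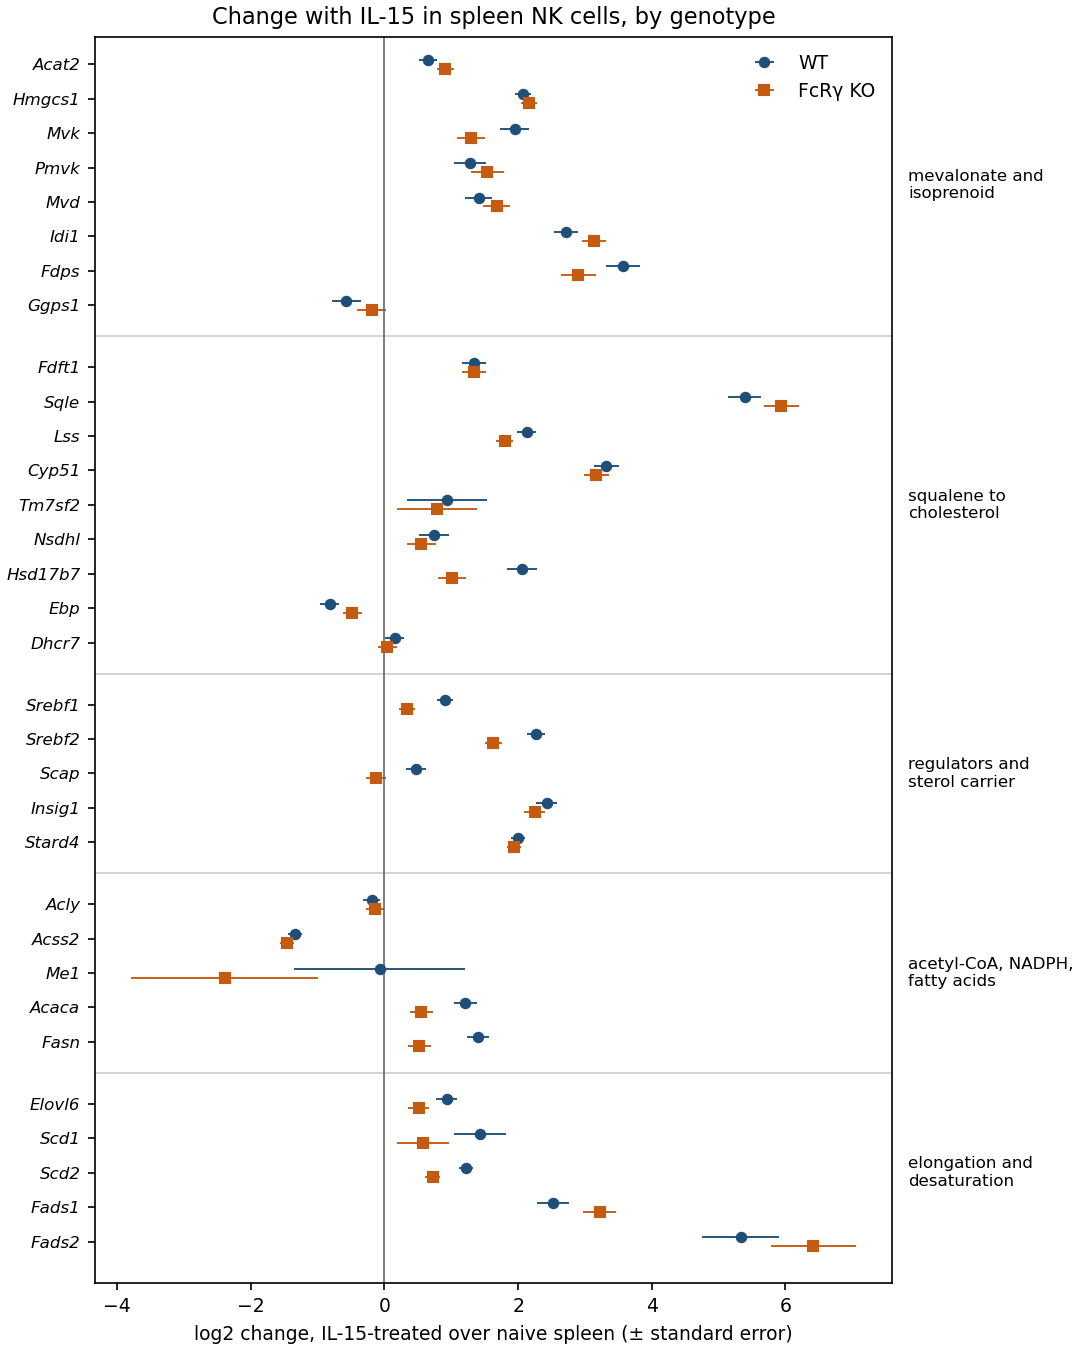
Log2 change of each of the 32 genes between IL-15-treated and naive spleen NK cells (points, ± standard error from edgeR), for WT (circles) and FcRγ KO (squares), grouped by role from top to bottom. Sqle and Fads2 lie farthest to the right in both genotypes, and Acss2 and Ebp lie left of 0 in both.

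Hmgcs1 encodes the cytosolic synthase that makes HMG-CoA, the substrate of mevalonate synthesis. It read 54.0, 64.5, 66.3 and 54.9 CPM in the naive WT libraries and 279, 275, 256 and 265 with IL-15. In KO the naive libraries read 40.3, 46.7, 50.8 and 59.2 and the IL-15 libraries 215, 249, 222 and 243. Every IL-15 library stood far above every naive one, by 2.08 ± 0.12 log2 units in WT (adjusted p = 1.48e-10) and 2.16 ± 0.12 in KO (adjusted p = 1.11e-10, edgeR). Idi1, the isomerase that makes the allylic building block of isoprenoids, read 25.9, 25.8, 23.6 and 24.1 CPM in naive WT and 189, 166, 165 and 174 with IL-15. In KO it read 10.1, 18.4, 22.7 and 17.1 naive and 133, 180, 152 and 177 with IL-15. The change was 2.72 ± 0.18 in WT and 3.14 ± 0.18 in KO, with no overlap between states.

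Fdps, which makes farnesyl diphosphate, rose by 3.57 ± 0.26 in WT and 2.90 ± 0.26 in KO. The thiolase Acat2, the mevalonate kinase Mvk, the phosphomevalonate kinase Pmvk and the decarboxylase Mvd rose in both genotypes, by 0.65 to 1.95 in WT and 0.91 to 1.68 in KO. The exception among these 8 was Ggps1, which lengthens farnesyl to geranylgeranyl diphosphate, the donor for protein prenylation. It read 21.8, 27.2, 35.2 and 32 CPM in naive WT and 23.8, 13.9, 23.1 and 22.1 with IL-15. The KO libraries read 11.9, 26.7, 23.7 and 26.8 naive and 19.3, 23.3, 20.1 and 20.2 with IL-15. The states overlapped in both genotypes, with changes of −0.57 ± 0.22 in WT (adjusted p = 0.0371) and −0.19 ± 0.22 in KO (adjusted p = 0.532, edgeR). The WT call of Ggps1 was lost in 5 of 8 fits that left out 1 library (adjusted p up to 0.123, without WT naive replicate 3).

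Sqle, the squalene epoxidase that takes the first oxygen-dependent step of sterol synthesis, went from near the bottom of the family to its middle. Naive WT libraries read 1.44, 1.5, 2.05 and 1.38 CPM, and IL-15 libraries 82.7, 57.5, 70.3 and 72.9. In KO they read 1.06, 1.12, 0.422 and 1.75 naive and 65.5, 80.7, 68.9 and 69.7 with IL-15. The change was 5.39 ± 0.24 in WT and 5.94 ± 0.26 in KO. Per kilobase of exon, Sqle ranked 30 of 32 in naive WT (0.287 CPM per kb) and 13 of 32 with IL-15 (12.8 CPM per kb).

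Cyp51, the lanosterol demethylase, read 11.9, 22.2, 10.7 and 11.7 CPM in naive WT and 151, 166, 144 and 140 with IL-15. KO values were 17.6, 16.3, 13.7 and 12.4 naive and 129, 151, 133 and 150 with IL-15. It rose by 3.32 ± 0.19 in WT and 3.17 ± 0.19 in KO. The cyclase Lss rose by 2.13 ± 0.14 and 1.80 ± 0.13, the squalene synthase Fdft1 by 1.34 ± 0.18 in each genotype, and the ketosteroid reductase Hsd17b7 by 2.06 ± 0.22 and 1.01 ± 0.21. The dehydrogenase Nsdhl rose by 0.74 ± 0.22 in WT.

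Not every enzyme of the late cholesterol steps rose. Ebp, the sterol isomerase, read 99.3, 107, 110 and 104 CPM in naive WT and 63.4, 78.6, 51.9 and 58.9 with IL-15. Levels in KO were 91.9, 82.6, 82.9 and 61.4 naive and 61.6, 59.1, 53.6 and 64.4 with IL-15. The states did not overlap in WT and did in KO, and Ebp fell by 0.82 ± 0.14 in WT (adjusted p = 6.26e-05) and by 0.48 ± 0.14 in KO (adjusted p = 0.00798, edgeR). Dhcr7, which makes the last reduction of one branch to cholesterol, changed by 0.15 ± 0.14 in WT and 0.04 ± 0.14 in KO, with 95% intervals of −0.14 to 0.44 and −0.25 to 0.32. The sterol reductase Tm7sf2 stood at 0 to 4.38 CPM in spleen, with changes of 0.94 ± 0.60 and 0.79 ± 0.60.

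All 5 regulators and carriers rose in WT. Stard4, a soluble carrier that moves cholesterol between membranes, read 37.3, 38.9, 44.6 and 42.0 CPM in naive WT and 191, 153, 163 and 183 with IL-15. In KO it read 37.4, 41.6, 44.4 and 37.7 naive and 153, 177, 156 and 166 with IL-15. It rose by 2.00 ± 0.11 in WT (adjusted p = 5.96e-11) and 1.94 ± 0.11 in KO (adjusted p = 9.4e-11, edgeR), and naive libraries of the 2 genotypes overlapped. Srebf2, the SREBP that favours sterol genes, read 70, 60.4, 46.2 and 66.3 CPM in naive WT and 313, 260, 334 and 334 with IL-15. The KO libraries read 123, 115, 96.3 and 94.0 naive and 371, 372, 340 and 307 with IL-15. It rose by 2.27 ± 0.13 in WT and 1.63 ± 0.13 in KO.

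Srebf1, the SREBP that favours fatty acid genes, rose less, by 0.90 ± 0.12 in WT and 0.34 ± 0.12 in KO. Its KO call was lost in 3 of 8 fits without 1 library (adjusted p up to 0.104, without KO naive replicate 4) and with a length and GC offset (0.21, adjusted p = 0.11, edgeR). In WT its change was 0.53 with that offset and still passed. Insig1, the retention protein that is itself a sterol-regulated gene, rose by 2.43 ± 0.16 in WT and 2.25 ± 0.16 in KO. The escort gene Scap rose by 0.47 ± 0.15 in WT, and by 0.00 once gene length and GC content were offset (adjusted p = 0.978, edgeR).

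The fatty acid synthesis genes split. Fasn, the fatty acid synthase, read 142, 108, 95.5 and 155 CPM in naive WT and 357, 246, 404 and 396 with IL-15. KO values were 347, 274, 234 and 240 naive and 445, 464, 391 and 344 with IL-15. States did not overlap in WT, where Fasn rose by 1.40 ± 0.17, and overlapped in KO, where it rose by 0.52 ± 0.17 (adjusted p = 0.0206, edgeR). The KO call was lost in 4 of 8 fits without 1 library (adjusted p up to 0.0636, without KO IL-15 replicate 2). Acaca, the carboxylase that makes malonyl-CoA, rose by 1.21 ± 0.17 in WT and 0.55 ± 0.17 in KO. With the length and GC offset the KO changes of Fasn and Acaca were 0.26 and 0.18 (adjusted p = 0.058 and 0.14, edgeR). Their WT changes were smaller with it too, 0.72 and 0.47, and both still passed. Over 13157 genes Spearman's rho between summed exon length and the IL-15 change was 0.216 in WT and 0.112 in KO. Over the 32 it was −0.0883 and −0.259.

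Acss2, which makes acetyl-CoA from acetate, moved the other way. It read 97.6, 105, 108 and 122 CPM in naive WT and 44.8, 38.8, 42.5 and 54.6 with IL-15. Levels in KO were 114, 120, 99.7 and 117 naive and 43.7, 43.8, 41.9 and 42.8 with IL-15. No library overlapped between states, and Acss2 fell by 1.34 ± 0.11 in WT and by 1.46 ± 0.11 in KO. Acly, which makes acetyl-CoA from citrate, was the most abundant of the 32 per kilobase in naive WT (61.3 CPM per kb) and changed by −0.19 ± 0.13 in WT and −0.14 ± 0.13 in KO, neither of which passed. Me1, the cytosolic malic enzyme that makes NADPH, stood at 0 to 3.28 CPM in spleen, too low to place (standard errors of 1.28 and 1.40).

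All 5 elongation and desaturation genes rose in WT and 4 of them in KO. Scd2, a stearoyl-CoA desaturase, read 239, 206, 202 and 196 CPM in naive WT and 560, 448, 529 and 543 with IL-15. In KO it read 254, 322, 249 and 231 naive and 416, 500, 469 and 445 with IL-15. It rose by 1.22 ± 0.11 and 0.72 ± 0.11, and with IL-15 it was the most abundant of the 32 per kilobase (95.2 CPM per kb in WT). Scd1 and Scd2 are close paralogues, and how the estimated counts divided reads that match both was not stated in the labels.

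Fads1, the Δ5 desaturase of polyunsaturated fatty acids, read 3.92, 4.42, 8.30 and 7.98 CPM in naive WT and 39.0, 27.3, 42.4 and 41.6 with IL-15. The KO libraries read 3.37, 4.35, 5.06 and 2.82 naive and 35.0, 41.7, 43.4 and 34.5 with IL-15. It rose by 2.52 ± 0.24 and 3.22 ± 0.25. Its neighbour Fads2, the Δ6 desaturase, stood at 0 to 0.337 CPM (0 to 9 counts) in the naive libraries and at 7.21 to 8.18 CPM in all 8 IL-15 libraries. The fitted change of 5.33 ± 0.57 in WT and 6.42 ± 0.64 in KO rests on those few naive counts. The elongase Elovl6 rose by 0.93 ± 0.16 and 0.51 ± 0.16.

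**Figure D2:**
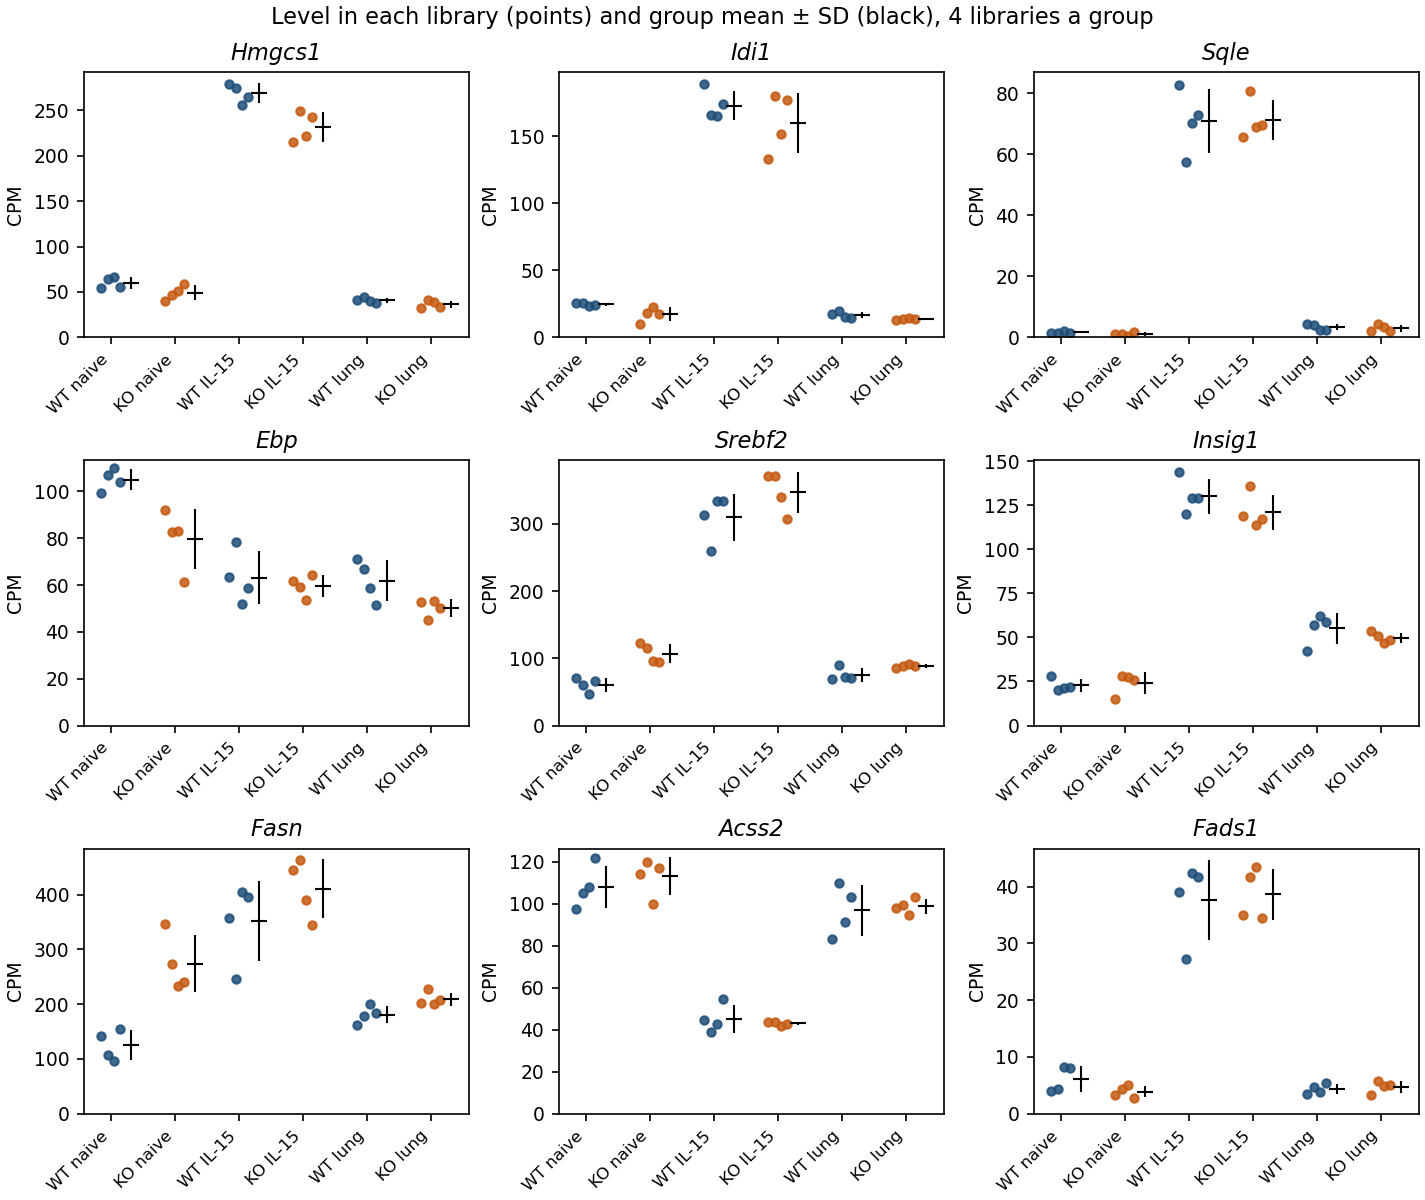
CPM in each library (points) of 9 of the genes, with the group mean ± SD in black (n = 4 a group) and each axis starting at 0, WT in blue and FcRγ KO in orange. Hmgcs1, Idi1, Sqle, Srebf2, Insig1 and Fads1 stand highest in the 8 IL-15 libraries, Acss2 stands lowest there, and Ebp stands highest in naive WT.

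Of the WT calls 26 of 28, and of the KO calls 20 of 24, were kept in every alternative fit and with each library left out. Genes of S phase and mitosis moved with the same contrast: the summed level of 18 such genes was 635 ± 34.2 CPM in naive WT and 3830 ± 206 with IL-15, and 556 ± 43.5 and 3840 ± 157 in KO (exact permutation test, p = 0.0286 in each, the smallest that 4 against 4 allows; adjusted over 11 marker lists 0.0524 and 0.0393). The NK marker sum was 7760 ± 636 CPM in IL-15 WT and 6710 ± 364 in IL-15 KO, below the naive libraries. Their part in the results was not tested. B cell, neutrophil, erythroid and platelet markers summed to at most 5.03, 0.18 and 0.747 CPM in the IL-15 libraries, and the macrophage list to 27.4, above the naive libraries of the same genotype (18.0 to 23.5 CPM against 6.78 to 10.7 in WT, 20.2 to 27.4 against 7.42 to 18.4 in KO). T cell markers summed to more, 116 to 161 CPM in IL-15 WT and 138 to 164 in IL-15 KO. The naive libraries read 137 to 191 in WT and 165 to 253 in KO. These sums overlapped in WT (exact permutation test, p = 0.229) and not in KO (p = 0.0286, adjusted p = 0.0393). Epithelial markers reached 21.7 CPM in IL-15 WT and 10.1 in IL-15 KO. The part of these transcripts in the results was not tested. All 6 adipocyte-list genes, among them Adipoq and Plin1, stood under 1 CPM in every spleen library.

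Genes around the family were taken from 8 further lists of 73 tested genes, of which 21.9% rose and 35.6% fell in WT and 17.8% and 28.8% in KO. Over all genes those shares were 26.4% and 26% in WT and 20.7% and 21% in KO, so the small counts per list that follow are descriptions. Of 5 other cholesterol enzymes tested 4 rose in WT and in KO, with median log2 changes over the 5 of 1.5 and 1.39. Of 7 genes of sterol uptake and lysosomal release 3 rose and 2 fell in WT, and 3 rose and 3 fell in KO. Among those that rose, named after their values were seen, were the lipoprotein receptor genes Scarb1 (3.56 ± 0.45 in WT) and Lrp8 (4.43 ± 0.59). Lipa, the lysosomal lipase that frees cholesterol from its esters, fell by 1.68 ± 0.11 in WT and by 1.42 ± 0.11 in KO, and the lysosomal carrier Npc2 fell by 0.61 ± 0.13 and by 0.48 ± 0.13.

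A list of 8 genes, of targets of the sterol-activated receptor LXR and of efflux and esterification, held none that passed as higher. No conclusion is drawn for LXR targets outside this list. Of 8 tested, 4 fell and 0 rose in each genotype (at unadjusted p under 0.05, 0 rose in WT and 1 in KO). The efflux transporter Abcg1 read 165, 166, 135 and 176 CPM in naive WT and 25.9, 20.5, 26.4 and 29.9 with IL-15, and fell by 2.73 ± 0.13 in WT and by 2.76 ± 0.13 in KO. Mylip, the ligase that marks lipoprotein receptors for degradation, fell by 1.54 ± 0.13 and by 1.67 ± 0.13. The efflux transporter Abca1 fell by 3.10 ± 0.30 and by 4.26 ± 0.31.

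Of 7 genes of SREBP processing and degradation 1 rose and 4 fell in WT and 3 fell in KO, among them Lpin1 (by 0.80 ± 0.09 in WT and by 1.05 ± 0.10 in KO). Of 12 fatty acid oxidation genes 5 fell and 0 rose in each genotype (at unadjusted p under 0.05, 0 rose), with Hadhb, of the trifunctional protein, falling by 0.65 ± 0.10 and Cpt1a, the mitochondrial entry enzyme, by 0.55 ± 0.16 in WT. Of 11 isoprenoid branch genes 4 rose and 4 fell in WT, against 26.4% and 26% of all genes, with the ubiquinone genes Pdss1 and Coq2 rising by 2.43 ± 0.41 and 0.95 ± 0.21. Of 7 NADPH supply genes 1 rose, Tkt (1.00 ± 0.14), and 2 fell, with Taldo1 falling by 1.04 ± 0.12. Of 16 other fatty acid enzymes tested 3 rose and 5 fell in WT, with the elongase Elovl7 falling by 2.31 ± 0.19 and the transcription factor gene Mlx by 1.15 ± 0.11.

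Without treatment, spleen NK cells lacking FcRγ had higher transcripts of both SREBP genes, of the escort Scap and of the fatty acid enzymes Fasn, Acaca and Elovl6, while most of the family did not pass the test. Among these named genes Srebf2, Fasn and Acaca kept their call in every alternative fit, and Srebf1, Scap and Elovl6 did not. Of the 32 genes 7 rose (Fasn, Hsd17b7, Srebf2, Srebf1, Acaca, Scap and Elovl6) and 2 fell (Idi1 and Ebp) in naive KO against naive WT, where 11.1% of all tested genes rose and 9.22% fell (20.3% in either direction). The median of the 32 was 0.10, against 0.00 over all genes. By role, 3 of 5 regulators and carriers, 2 of 5 fatty acid synthesis genes, 1 of 5 elongation and desaturation genes and 1 of 17 sterol enzymes rose.

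In the naive values given above, every KO library read higher than every WT library for Srebf2 (94.0 to 123 against 46.2 to 70 CPM) and for Fasn (234 to 347 against 95.5 to 155). The changes were 0.79 ± 0.13 (adjusted p = 0.000524) and 1.10 ± 0.17 (adjusted p = 0.000436, edgeR). Srebf1 read 77.4, 88.8, 59.0 and 80.1 CPM in WT and 135, 125, 128 and 98.4 in KO, without overlap, a change of 0.64 ± 0.12 (adjusted p = 0.00164, edgeR). Acaca read 32.2, 30.6, 22.6 and 35.2 CPM in WT and 42.5, 58.2, 46.8 and 55.3 in KO, also without overlap, a change of 0.72 ± 0.17 (adjusted p = 0.00686, edgeR).

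Scap read 56.1, 49.0, 38.8 and 51.8 CPM in WT and 103, 64.9, 63.3 and 66.5 in KO, with the shallow KO replicate 1 far above the other 3. Its change was 0.57 ± 0.15 (adjusted p = 0.0108, edgeR). Elovl6 stood at 26.5 to 44.6 CPM in WT and 41.4 to 59.5 in KO, which overlap, and changed by 0.48 ± 0.16 (adjusted p = 0.0409, edgeR). The call of Elovl6 was lost in 6 of 8 fits without 1 library (adjusted p up to 0.153, without WT naive replicate 3).

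Hsd17b7, the sterol ketoreductase whose gene lies 1.28 Mb from Fcer1g on chromosome 1, had the largest rise of the 32. It read 3.30, 4.84, 5.85 and 4.48 CPM in naive WT and 8.97, 16.3, 9.61 and 11.9 in naive KO, without overlap. The change was 1.32 ± 0.22 (adjusted p = 0.000524, edgeR). With IL-15 the WT libraries read 20.4, 15.1, 24.4 and 22.1 CPM and the KO libraries 22.4, 29.1, 23.0 and 25.1, which overlap (0.27 ± 0.20). In lung the WT libraries read 4.47, 4.67, 5.39 and 4.15 and the KO libraries 7.55, 7.89, 5.70 and 8.25, all 4 above every WT library (0.65 ± 0.21, adjusted p = 0.272, edgeR). The part of that position in the result was not tested.

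The 2 genes that fell in naive KO were Idi1 (−0.55 ± 0.17, adjusted p = 0.0299) and Ebp (−0.43 ± 0.14, adjusted p = 0.0326, edgeR), and neither overlapped between genotypes. Both calls were among those lost most easily: Idi1 in 3 and Ebp in 5 of 8 fits without 1 library (adjusted p up to 0.0663, without WT naive replicate 2, and 0.0973, without KO naive replicate 4). The other mevalonate and cholesterol enzymes ranged from −0.56 for Sqle to 0.52 for Mvk and Fdps, and none passed.

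Longer genes read higher in naive KO over the whole table, and 4 of the 7 genes that rose were among the 6 longest of the 32. Spearman's rho between summed exon length and the KO change was 0.278 over 13157 genes and 0.5 over the 32, a description across genes of the same libraries. Fasn (10.95 kb), Acaca (17.07 kb), Scap (7.44 kb) and Srebf2 (7.18 kb) are those 4, Srebf1 (5.63 kb) and Hsd17b7 (5.10 kb) are of middle length, and Ebp (2.31 kb) is among the shortest. Lss (10.79 kb) and Acss2 (10.16 kb) are as long and did not pass (0.36 ± 0.13 and 0.03 ± 0.11). With an offset for length and GC content rho was 0.0723 over all genes and 0.345 over the 32, and 5 genes rose and 2 fell. Of all 13344 genes 1130 rose and 1020 fell with that offset. Fasn then stood at 0.60, Srebf2 at 0.41 and Acaca at 0.34, all of which passed, and Hsd17b7 at 1.43. Srebf1 (0.31, adjusted p = 0.0553), Scap (0.14, adjusted p = 0.416) and Idi1 (−0.32, adjusted p = 0.0999, edgeR) no longer passed, and Fads1 did as lower (−0.79). Acaca, Srebf2, Fasn and Hsd17b7 kept their call in every alternative and with each library left out.

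**Figure D3:**
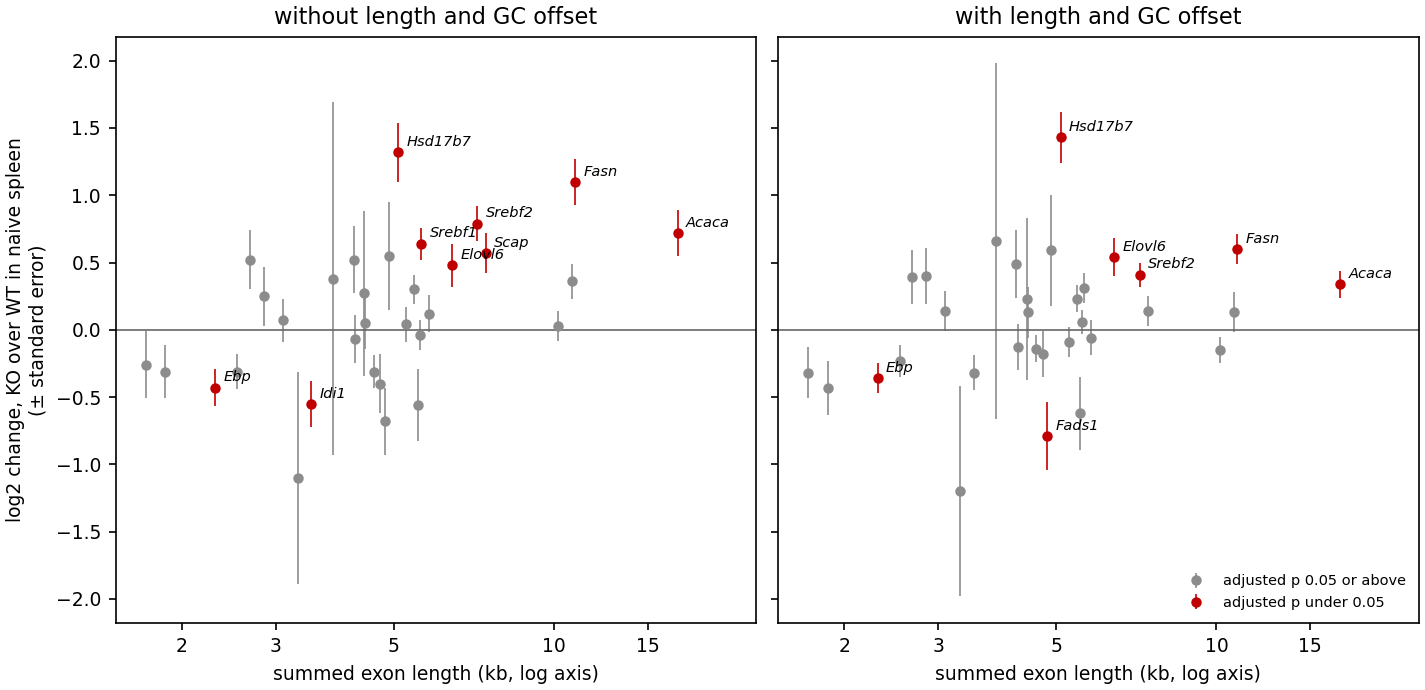
Log2 change of each of the 32 genes between naive KO and naive WT spleen (± standard error) against summed exon length on a log axis, without and with an offset for length and GC content, red where the adjusted p is under 0.05. Fasn moves from 1.10 to 0.60 and Acaca from 0.72 to 0.34, while Hsd17b7 stays near 1.32.

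In the 8 other lists 6 of 73 genes rose (8.22%) and 8 fell (11%) in naive KO, shares near those of all genes (11.1% and 9.22%). The genes named next are therefore single values and show nothing about their lists. Abca1 read 45.7, 46.3, 41.1 and 62.4 CPM in WT and 99.2, 141, 103 and 119 in KO and rose by 1.21 ± 0.27 (adjusted p = 0.00474, edgeR). Cpt1a rose by 0.62 ± 0.16 (adjusted p = 0.0111, edgeR). Elovl7 (−0.91 ± 0.19), Dhdds, of dolichol synthesis (−0.56 ± 0.11), Insig2 (−0.47 ± 0.14) and the mitochondrial malic enzyme Me2 (−0.34 ± 0.12) fell. B cell markers summed to 19.2 ± 6.43 CPM in naive KO and 10.6 ± 2.80 in naive WT, and NK markers were lower in KO as given above (exact permutation test, p = 0.0286 for each, adjusted p = 0.157). T cell markers summed to 226 ± 41.5 and 165 ± 25.8 CPM (exact p = 0.0857), with 4 of 7 tested called higher in KO. Mitosis and S phase genes summed to 556 ± 43.5 and 635 ± 34.2 CPM (exact p = 0.0571), with 7 of 18 called lower in KO. Mitochondrial transcripts took 1.18 to 9.28% of counts in naive KO and 4.89 to 6.31% in naive WT. Their part in the results was not tested.

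With IL-15, none of the 32 genes passed between KO and WT in either direction (edgeR), as held for nearly all genes of the table. None of the 32 had an unadjusted p under 0.05, against 1.58% of all genes. Over all 13344 genes edgeR called 0.0824% higher and 0.0525% lower (0.135% in either direction). DESeq2 and voom with library weights also called 0 of the 32. Over all genes DESeq2 called 20 higher and 10 lower, and voom 30 and 24. Changes ran from −0.30 for Scd1 to 0.27 for Hsd17b7 in all but Me1 (−1.93 ± 1.37). Hmgcs1 read 215 to 249 CPM in KO and 256 to 279 in WT, which did not overlap, with a change of −0.22 ± 0.12 (adjusted p = 1.0, edgeR). Srebf2 differed by 0.15 ± 0.13 (95% interval −0.11 to 0.42), Fasn by 0.22 ± 0.17 (−0.14 to 0.58) and Sqle by 0.00 ± 0.19 (−0.40 to 0.39), so differences within those intervals could not be seen here.

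In tumour-bearing lung no gene of the family passed between KO and WT either (edgeR, 0.625% of all 13129 genes called). Of the 31 genes that met the low-count filter there, Fads2 being the one that did not, 2 were higher (Hsd17b7 and Srebf2) and 2 lower (Ebp and Scd2) at unadjusted p under 0.05, a share of 12.9% against 11.6% of all genes. DESeq2 and voom called 0 of the 31. Over all 13129 genes DESeq2 called 160 higher and 154 lower, and voom 128 and 140. Srebf2 differed by 0.24 ± 0.11 and Fasn by 0.21 ± 0.10.

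**Figure D4:**
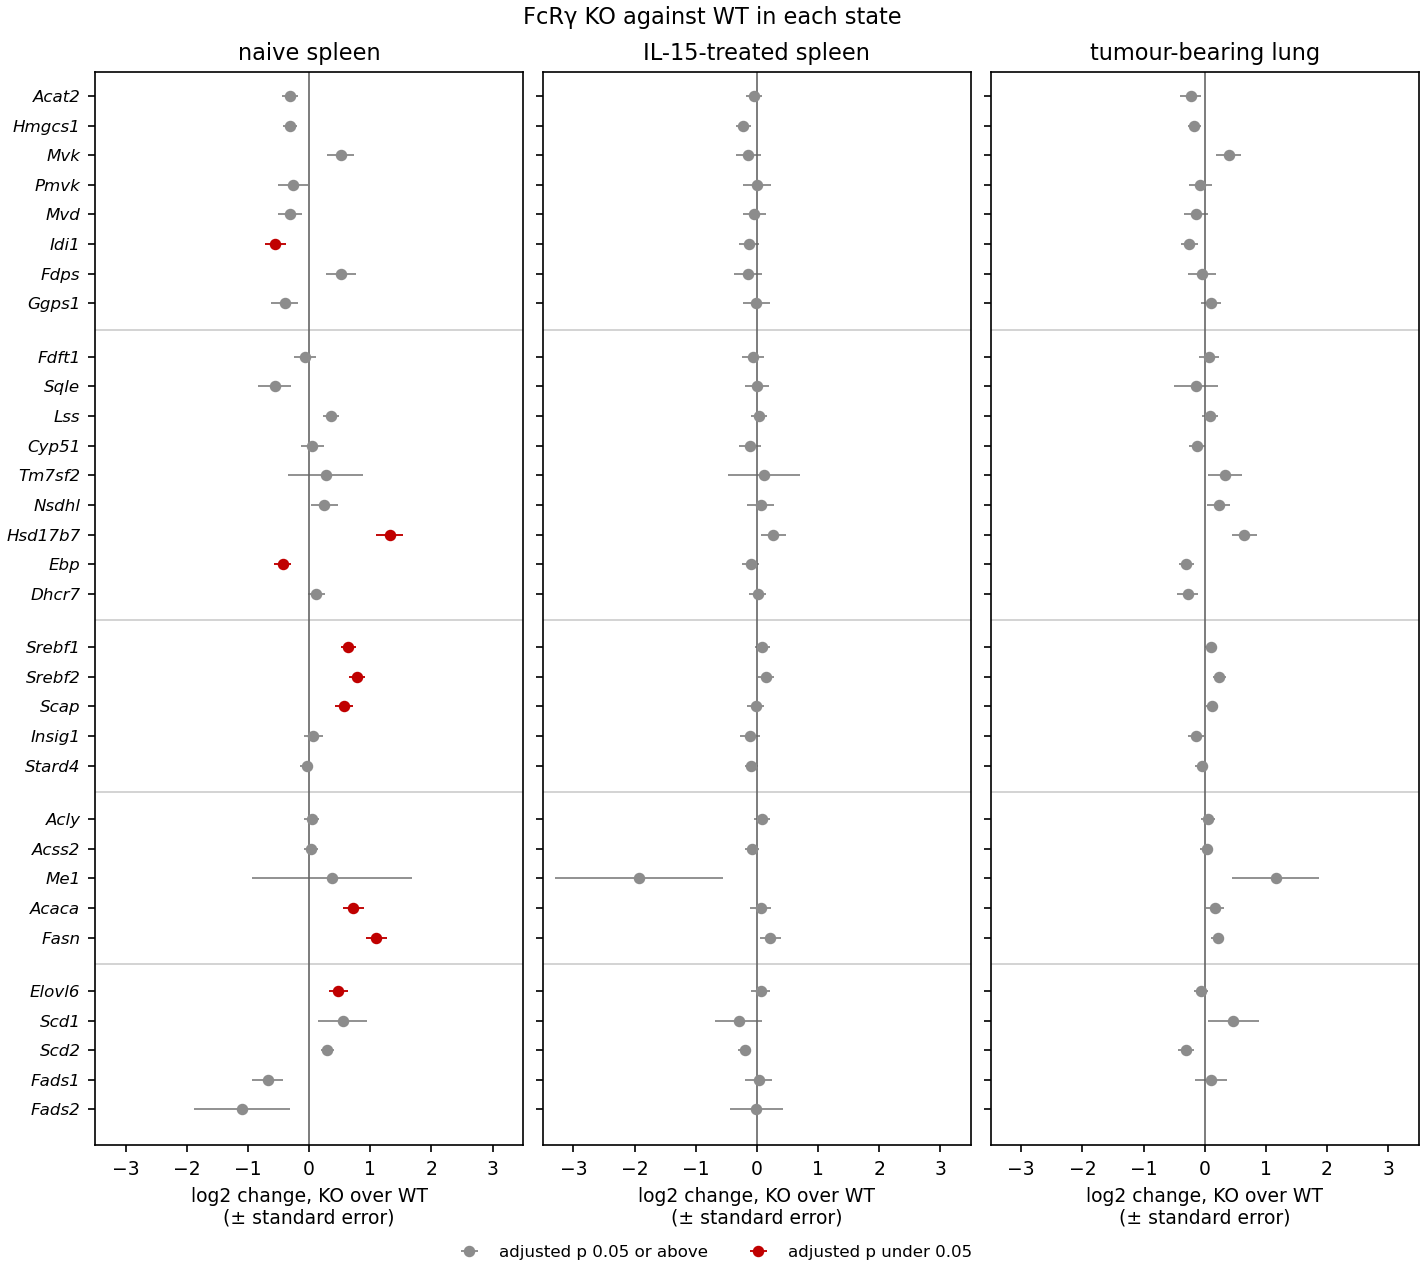
Log2 change of each of the 32 genes between FcRγ KO and WT (± standard error) in 3 panels, naive and IL-15-treated spleen and then lung, grouped by role as in the plot of the IL-15 changes, with calls in red. Calls stand in the naive panel alone, Fads2 has no value in lung, and Me1 has the widest errors.

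Whether the KO effect differed between states was tested as an interaction. For IL-15 against naive none of the 32 passed (edgeR, 1.54% of all genes called), while 1 was higher and 8 lower at unadjusted p under 0.05 (28.1%, against 16.4% of all genes). The smallest p belonged to Fasn (−0.88 ± 0.24, adjusted p = 0.0732), Hsd17b7 (−1.05 ± 0.30, adjusted p = 0.0778) and Srebf2 (−0.63 ± 0.18, adjusted p = 0.0822). This count depended on the method, as did the count over all genes. DESeq2 called 5 genes as lower (Srebf1, Srebf2, Fasn, Scd2 and Hsd17b7), and voom with library weights called 6 as lower (those 5 and Acaca) and 1, Ebp, as higher. Of all 13344 genes edgeR called 142 lower and 63 higher, DESeq2 474 and 218, and voom 818 and 502. Left-out libraries gave 0 to 5 calls as lower, with 5 called without WT IL-15 replicate 2, where 413 of all 13557 genes were called lower. For lung against naive Fasn passed as lower (−0.92 ± 0.22, adjusted p = 0.0408, edgeR), where 0.981% of all genes were called lower. Fasn read 162, 178, 201 and 183 CPM in WT lung and 202, 227, 201 and 207 in KO lung, which touch at 201, against a clear gap in naive spleen. That call was lost in 11 of 16 fits without 1 library (adjusted p up to 0.105, without WT naive replicate 3). Both interactions use the naive libraries in which the KO effect was called, so they are not independent of it.

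NK cells of tumour-bearing lung differed from naive spleen NK cells less uniformly than IL-15-treated ones did. No group holds tumour-free lung or spleen of tumour-bearing mice, so tissue and tumour cannot be told apart here. In WT 12 of the 32 rose and 5 fell, with 29.2% of all 14275 genes rising and 20% falling (49.2% in either direction). In KO 4 rose and 6 fell, with 24.3% and 18.1%. The medians of the 32 were 0.09 and −0.06, against 0.08 and 0.05 over all genes. Insig1, Mvd, Sqle and Tm7sf2 rose in both genotypes, and Dhcr7, Ebp, Hmgcs1 and Scd2 fell in both. The Sqle call was kept with each library left out but lost with the compared groups fitted alone (adjusted p = 0.054 in WT and 0.0525 in KO, edgeR). In WT it was also lost with voom. The Tm7sf2 call was lost in 7 of 8 fits without 1 library in WT (adjusted p up to 0.122, without WT naive replicate 3) and in 3 of 8 in KO (up to 0.127, without KO lung replicate 4, edgeR).

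Insig1 read 28.1, 19.9, 21.3 and 21.8 CPM in naive WT spleen and 42.3, 57.0, 62.0 and 58.9 in WT lung. KO values were 15, 28.3, 27.3 and 25.7 in naive spleen and 53.5, 50.8, 46.8 and 48.7 in lung. Tissues did not overlap, and the change was 1.28 ± 0.15 in WT (adjusted p = 1.75e-07) and 1.04 ± 0.15 in KO (adjusted p = 5.71e-06, edgeR). Mvd, the mevalonate diphosphate decarboxylase, read 8.74, 4.31, 9.21 and 6.46 CPM in naive WT and 18.0, 14.1, 11.3 and 12.7 in WT lung. Levels in KO were 6.36, 5.93, 5.61 and 5.79 in naive spleen and 13.8, 14.8, 13.2 and 8.67 in lung. It rose by 0.95 ± 0.20 in WT and 1.09 ± 0.21 in KO. Lss read 11.5, 10.9, 15.7 and 11.3 CPM in naive WT and 16.0, 16.2, 17.8 and 17.9 in WT lung, a rise of 0.46 ± 0.13. In KO Lss read 16.2, 17.2, 17.8 and 13.5 in naive spleen and 19.6, 17.8, 18.9 and 15.2 in lung (0.15 ± 0.13, not passed).

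Among those that were lower in lung, Ebp read 71.0, 66.7, 58.6 and 51.4 CPM in WT lung and 52.8, 44.9, 53.2 and 50.2 in KO lung, below every naive spleen library of its genotype. It fell by 0.77 ± 0.13 in WT and by 0.66 ± 0.13 in KO. Hmgcs1 read 41.3, 44.1, 39.5 and 38.3 CPM in WT lung and 32.2, 40.7, 38.6 and 33.5 in KO lung and fell by 0.55 ± 0.11 and by 0.45 ± 0.11, with no overlap of tissues in WT and 1 in KO (40.3 against 40.7 CPM). Idi1 read 17.3, 19.5, 15.5 and 14.2 CPM in WT lung and 13.2, 14.0, 14.4 and 14.0 in KO lung, a fall of 0.58 ± 0.15 in WT (adjusted p = 0.00299) and a change of −0.31 ± 0.16 in KO (adjusted p = 0.111, edgeR). Sqle, at 2.27 to 4.35 CPM in WT lung and 2.00 to 4.39 in KO lung, stayed far below its IL-15 level.

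**Figure D5:**
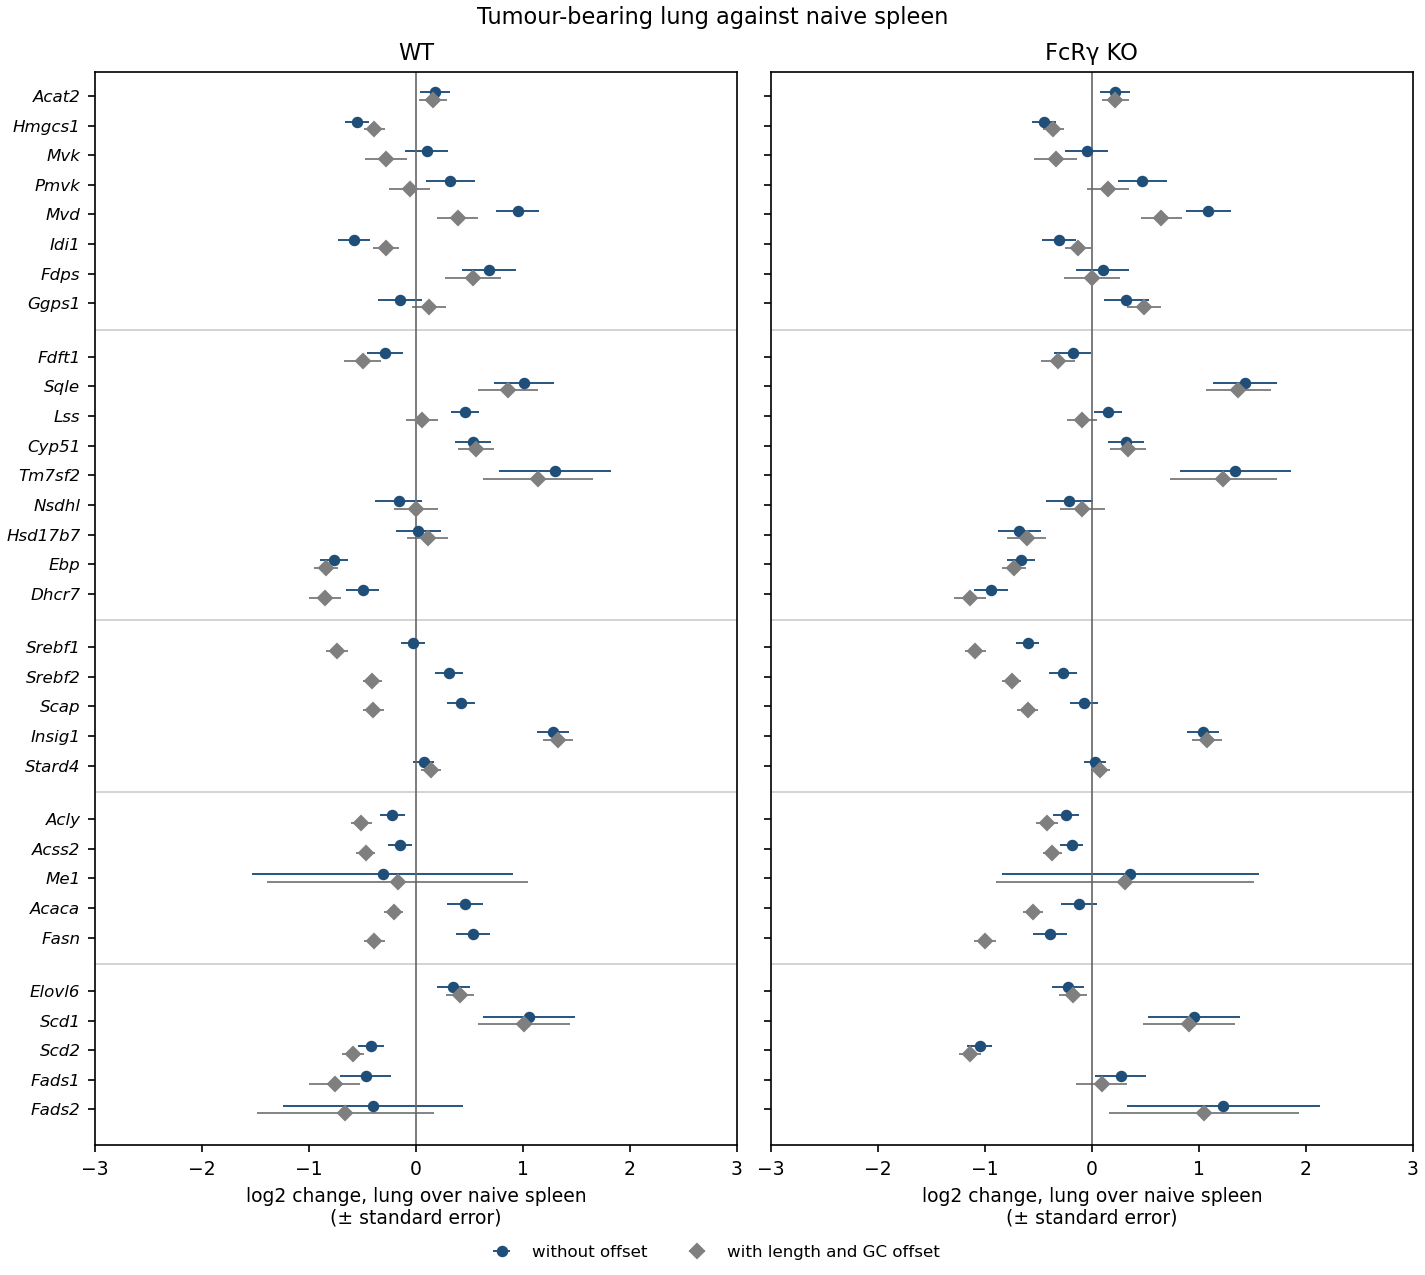
Log2 change of each of the 32 genes between tumour-bearing lung and naive spleen (± standard error) in WT and in FcRγ KO, without (circles) and with (diamonds) an offset for length and GC content. Insig1 and Sqle lie right of 0 under both, and in WT Fasn, Srebf2, Scap and Acaca move from right to left of 0.

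The lung counts depended on how gene length was handled. With the length and GC offset 4 genes rose and 12 fell in WT, and 5 rose and 12 fell in KO. Of all 14275 genes 3422 then rose and 3720 fell in WT, and 3027 rose and 3721 fell in KO. In WT Srebf2 went from 0.31 to −0.41, Fasn from 0.53 to −0.39, Scap from 0.42 to −0.40 and Acaca from 0.46 to −0.21, so no direction is given here for these 4. The offset moved the median of all genes by −0.13 in WT and −0.118 in KO, and the share of calls that were higher over all genes from 59.4 to 47.9% in WT and from 57.3 to 44.9% in KO. Of the other WT calls named here, Mvd stood at 0.39 (adjusted p = 0.0916), Lss at 0.06 (adjusted p = 0.75) and Idi1 at −0.28 (adjusted p = 0.0579, edgeR) with the offset. Without WT naive replicate 3, 6 genes rose in WT, where 3846 of all 14594 genes rose. The WT rise of Fdps (0.68 ± 0.25) was lost without WT lung replicate 1, which read 23.4 CPM against 10.8 to 12.3 in the other 3 (adjusted p = 0.168, edgeR). Insig1, Scd2, Ebp, Dhcr7 and Hmgcs1 kept their call in every setting in both genotypes.

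Transcripts of other cells were present in the lung libraries. The 10 macrophage and monocyte markers summed to 115 ± 37.8 CPM in WT lung and 360 ± 211 in KO lung, against 9.09 ± 1.65 and 11 ± 5.02 in naive spleen, with Lyz2 at up to 573 CPM. Epithelial markers summed to 58.7 ± 28.7 and 168 ± 170 CPM in WT and KO lung (Scgb1a1 at up to 373), endothelial ones to 75.1 ± 29.3 and 53.8 ± 16.4, and adipocyte-list genes to 11.8 ± 3.97 and 28.8 ± 11.5, led by Lpl (at up to 39.7). Macrophage and adipocyte sums did not overlap between KO and WT lung, nor did the mitosis and S phase sum, at 436 to 458 CPM in KO and 517 to 617 in WT (exact permutation test, p = 0.0286, adjusted p = 0.105 for each). The NK marker sum was 14000 ± 2160 CPM in WT lung and 11900 ± 846 in KO lung, below naive spleen of the same genotype (exact permutation test, p = 0.0286 for each, adjusted p = 0.0524 and 0.0449). Mitochondrial transcripts took 9.18 ± 1.05% of counts in KO lung and 4.74 ± 1.22% in WT lung. Their part in the lung results was not tested.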

How the data were processed

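Expected counts per gene for 24 libraries were used as deposited; per the submitters' processing notes the authors' tools included cutadapt 1.9, STAR 2.5.2a and RSEM 1.2.30 with the GRCm38 build. Of the deposited values 5.47% were not whole, and all were rounded. The labels do not state the strand setting of the counting. Genes with low counts were removed with filterByExpr, totals were scaled by TMM, and edgeR 4.0.16 quasi-likelihood tests (R 4.3.3) were fitted to the 16 spleen libraries together, the 8 lung libraries together and all 24 for lung against spleen. P-values were adjusted by Benjamini-Hochberg over all genes tested, and 0.05 was the threshold. Standard errors were taken as the log2 change over the square root of F. DESeq2 1.42.0, voom (limma 3.58.1), other filters and scalings, a length and GC offset (lowess span 0.3), replicate blocks and left-out libraries were alternatives. The offset used genes with a known length (95.3%). The edgeR script was tested on simulated data. No pair of libraries held identical values.

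The members and lists were chosen with earlier results of these data known. Named genes were, per role, those with the smallest p for IL-15 in WT and those called against the role's majority, then the leading calls of the naive KO and lung comparisons and any interaction called, and likewise the leading genes of each further list. Some genes that the rule gives are not reported here. Replicate numbers were not taken to pair samples. The correlation of deviations between same-numbered libraries was −0.19 to 0.247 over the comparisons within spleen and lung. Both ends of that range came from KO against WT with IL-15. For IL-15 against naive it was −0.0547 to 0.12 in WT and −0.0483 to 0.2 in KO. Other pairs there had means of −0.0116 in WT and −0.0158 in KO. Weak correlations such as these do not show pairing and cannot exclude it.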

Additional observations from a re-analysis of the deposited data

Results flagged for a closer look

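In 12 of 192 groups of 4 libraries, 1 library of a gene stood apart from the other 3, by a gap that took more of the group's range than the 95% critical value of Dixon's test. Chance alone gives about 1 in 20. KO naive replicate 1, 1 of the 2 shallow libraries, gave 3 of the 12: Scap at 103 CPM (others 63.3 to 66.5), Me1 at 3.28 (others 0 to 0.423) and Tm7sf2 at 0.0 (others 2.19 to 2.58). In WT naive spleen Lss stood at 15.7 CPM in replicate 3 (others 10.9 to 11.5), Cyp51 at 22.2 in replicate 2 (others 10.7 to 11.9) and Nsdhl at 15.6 in replicate 1 (others 13.4 to 13.6). With IL-15, KO replicate 4 held Mvk at 22.3 CPM (others 20.3 to 20.6) and KO replicate 1 held Elovl6 at 60 (others 79.8 to 83.3). In WT lung Fdps stood at 23.4 CPM in the shallow replicate 1 (others 10.8 to 12.3), Srebf2 at 89.6 in replicate 2 (others 68.5 to 71.6) and Pmvk at 8.3 in replicate 2 (others 10.6 to 11). In KO lung Tm7sf2 stood at 6.83 CPM in replicate 4 (others 3.62 to 4.15).

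The KO effect on Fasn was lower in lung than in naive spleen by a test of the difference itself (−0.92 ± 0.22 log2 units, 95% interval −1.38 to −0.46, adjusted p = 0.0408, edgeR), a call that most left-out libraries ended.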

How the results depend on the processing

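The counts of genes that rose or fell with IL-15 stayed within 1.5 times under every alternative, with 19 to 23 rising in KO and 25 in WT when 1 library was left out. Over all genes 2400 to 2882 rose in KO and 3247 to 3644 in WT in those fits. In naive KO 2 genes fell, against 1 with voom, 0 with the compared groups fitted alone and 1 to 3 with a library left out. Over all genes 1230 fell, against 1238 with voom, 787 with the groups alone and 755 to 1226 with a library left out. For the KO effect under IL-15 minus that in naive spleen, voom called 1 gene as higher, and 502 of all 13344 genes. Calls as lower numbered 1 with the length and GC offset, 1 without both shallow libraries (KO naive replicate 1 and WT lung replicate 1), 5 with DESeq2, 6 with voom, 4 with all 24 libraries fitted and 0 to 5 with a library left out. Over all genes those calls numbered, in the same order, 187, 149, 474, 818, 271 and 54 to 413, against 142 in the main fit. In WT lung 4 genes rose and 12 fell with the offset, 7 rose with the groups fitted alone and 6 to 11 with a library left out. Over all genes 3422 rose and 3720 fell with the offset. With the groups alone 3231 rose, and with a library left out 3788 to 4260. With the offset Acaca stood at −0.21, Srebf2 at −0.41, Fasn at −0.39 and Scap at −0.40 in WT lung, each reversed. In KO lung 2 rose with the groups alone and 12 fell with the offset, where 2915 and 3721 of all genes did. For the lung interaction 2 genes were called lower with the stricter filter, 2 with the offset, 2 without both shallow libraries, 4 with DESeq2, 2 with voom and 0 to 3 with a library left out. Over all genes those calls numbered, in the same order, 180, 213, 359, 428, 397 and 61 to 410, against 140 in the main fit. The cause was not tested. With the replicate block 6 rose and 2 fell in naive KO and 0 genes were called in the lung interaction, so Elovl6 and the Fasn interaction were lost, as was Tm7sf2 in KO lung (adjusted p = 0.0507, edgeR), where 3 genes rose. With that block 1345 of all genes rose and 1113 fell in naive KO, and 3436 rose in KO lung. In the lung interaction 19 of all genes were called higher and 118 lower. A replicate block by library number lost Srebf1 in KO and Ggps1 in WT with IL-15. At most 2 of 4 libraries correlated best with their own number. Depth limits Me1, Tm7sf2 and the naive levels of Fads2 and Sqle most, where few counts stand behind a value.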
